A study of Homo sapiens with 6 samples.

Results

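The NanoString PanCancer Progression Panel holds 10 genes of the ephrin, semaphorin and Slit guidance families among its 770 genes. They were taken as every gene of the deposited table whose symbol starts with EFNA, EFNB, EPHA, EPHB, SEMA, PLXN, ROBO or SLIT. No gene of the ephrin ligands (EFNA and EFNB) was among them. The members are 5 Eph receptors (EPHA1, EPHA2, EPHB1, EPHB3 and EPHB4), 2 plexins (PLXNC1 and PLXND1), ROBO4, SEMA3E and SLIT2. This gives 2 ligands and 8 receptors.

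The study compared untreated HCT116 cells, a line derived from a human colorectal carcinoma, with HCT116 p21-/- cells, in which CDKN1A, the gene of the cell cycle inhibitor p21, is disrupted. There were 3 samples of the parental line, called WT here, and 3 of the p21-/- line, each described as a biological replicate. The p21-/- cells were obtained from another laboratory as an established isogenic line, and the labels do not say how many knockout clones the 3 samples represent, so the comparison is between cell lines. The labels give RPMI medium for all samples, whereas the methods of the study give DMEM for the p21-/- cells and RPMI for WT, so medium and genotype cannot be told apart if the methods apply.

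Guidance molecules were first studied in growing axons and vessels, where a ligand on or from a neighbouring cell turns a receptor-bearing cell away or draws it in. Eph receptors are tyrosine kinases that bind membrane-anchored ephrins on adjacent cells. In the gut epithelium, Eph and ephrin contacts keep crypt compartments apart. Semaphorins act on plexins, which carry a GTPase-activating domain in their cytoplasmic part, often together with neuropilin co-receptors. Secreted Slit proteins bind roundabout (ROBO) receptors.

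CDKN1A read 4133, 5659 and 4312 normalized counts in WT and 460, 409 and 388 in p21-/- samples, whose mean was 8.90% of that in WT. Of 12 measured markers of colon epithelium, EPCAM and 8 others were above the floor in all samples, and CEACAM5 was at the floor in all 6. In p21-/- against WT cells 8 of the 12 were lower, 1, EPCAM, was higher (log2 fold change 0.22, limma adjusted p = 0.0444), and the median log2 fold change was -1.76. Their summed level was 37348 to 41941 in WT and 17411 to 18174 in p21-/- cells. Of 8 endothelial markers, 6 were at the floor in all samples, among them TEK and KDR, and EGFL7 accounted for most of a sum of 756 to 966 in WT and 606 to 670 in p21-/- cells. Of 10 fibroblast markers, FAP, LUM and COL6A3 were at the floor in all samples, and COL1A1 was above it in all 6. The sum was 478 to 545 in WT and 336 to 404 in p21-/- cells, but 44 of its 60 values were floor entries. COL1A1 was lower in p21-/- cells (mean 215 in WT and 63.8 in p21-/-, log2 fold change -1.73), 1 other marker was higher and 8 did not pass. Low values in the deposited table are replaced by a floor that is the lowest gene value of a sample, between 29.81 and 34.94 in WT and between 25.66 and 33.84 in p21-/- cells. The floor was not scaled with the other values, so a floor entry can stand for up to 44.9, 39.2 and 39.5 normalized counts in the 3 WT samples, in replicate order, and up to 36.5, 25.66 and 31.41 in the 3 p21-/- samples. Total barcode counts above the floor were 867428 to 1187900 in WT and 1125118 to 1335460 in p21-/- samples. The spiked positive controls had geometric means of 1601 to 1861 counts in WT and 1102 to 1261 in p21-/- samples, and their part in the results was not tested.

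Of the 10 guidance genes, 6 were above the floor in all 6 samples. These were EPHA1, EPHA2, EPHB3, EPHB4, PLXND1 and SEMA3E. ROBO4 was at the floor in all 6 samples, EPHB1 in 5, PLXNC1 in 2 WT samples and SLIT2 in 1 WT sample. In total 14 of 60 values were floor values, 9 of them in WT and 5 in p21-/- cells. Over the whole panel 1538 of 4620 values were floor values, 859 in WT and 679 in p21-/- cells. Receptors held 13 of the 14, but they also supplied 48 of the 60 values, so this is no contrast between ligands and receptors. Both ligands were above the floor in all p21-/- samples.

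**Figure D1:**
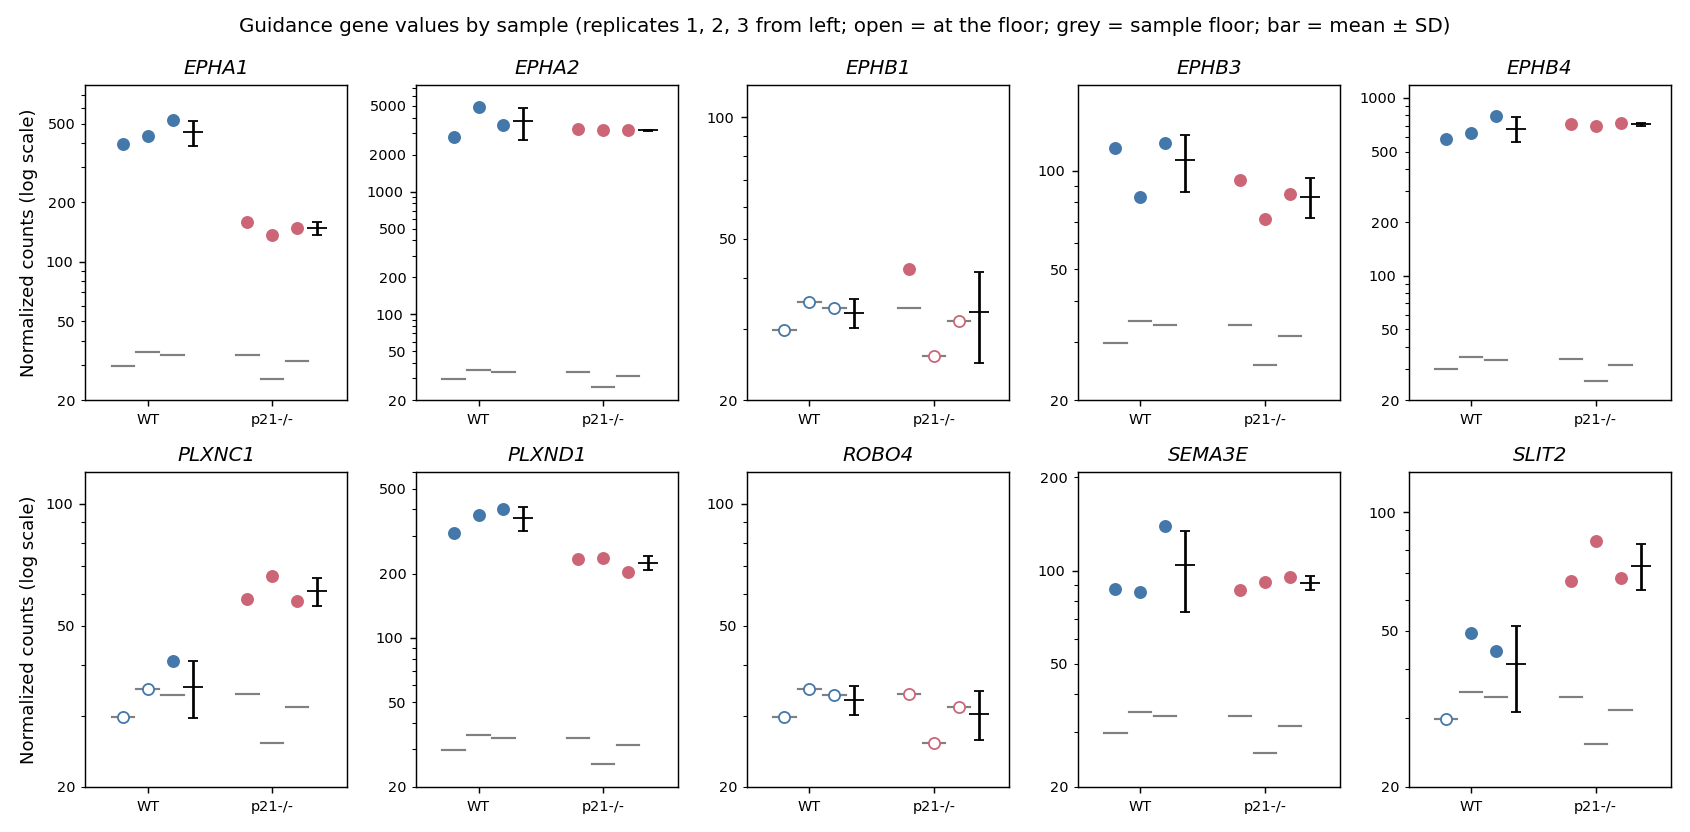
Normalized counts (log axis) of the 10 guidance genes in each sample, WT in blue and p21-/- in red, with replicates 1 to 3 from left to right in each line. Open circles are values at the floor, grey ticks are the floor of each sample, and the black bar is the mean with its SD (n = 3). EPHA1 and PLXND1 lie lower in all p21-/- samples, PLXNC1 and SLIT2 lie higher in all of them, and ROBO4 is at the floor throughout.

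In the comparison of p21-/- with WT cells, 4 of the 10 genes passed the threshold of 0.05 on the adjusted p of limma, a linear model of log2(value + 1) adjusted by Benjamini-Hochberg over 770 genes. EPHA1 and PLXND1 were downregulated, and PLXNC1 and SLIT2 were upregulated. Over the whole panel 47.8% of genes passed, 21.8% higher and 26.0% lower in p21-/- cells, so the share among the guidance genes was near that of the panel. Likewise 4 of 10 had no overlap between the lines, against 52.2% of the panel. The median log2 fold change was -0.13 over the 10 genes and -0.12 over all genes tested, but -0.12 is also the value of any gene at the floor in all 6 samples, such as ROBO4, so these medians are set in part by floor entries. Without genes that had any floor entry, it was -0.27 for the remaining 6 guidance genes and -0.050 for the remaining 446 genes of the panel. This filter removed the upregulated PLXNC1 and SLIT2 through their WT floor entries and kept the downregulated EPHA1 and PLXND1. The value of -0.27 is therefore set in part by the filter and shows no shift of the guidance genes as a set. Of the 2 ligands, 1 rose, none fell and the other did not pass the test. Of the 8 receptors, 1 rose, 2 fell and 5 did not pass.

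**Figure D2:**
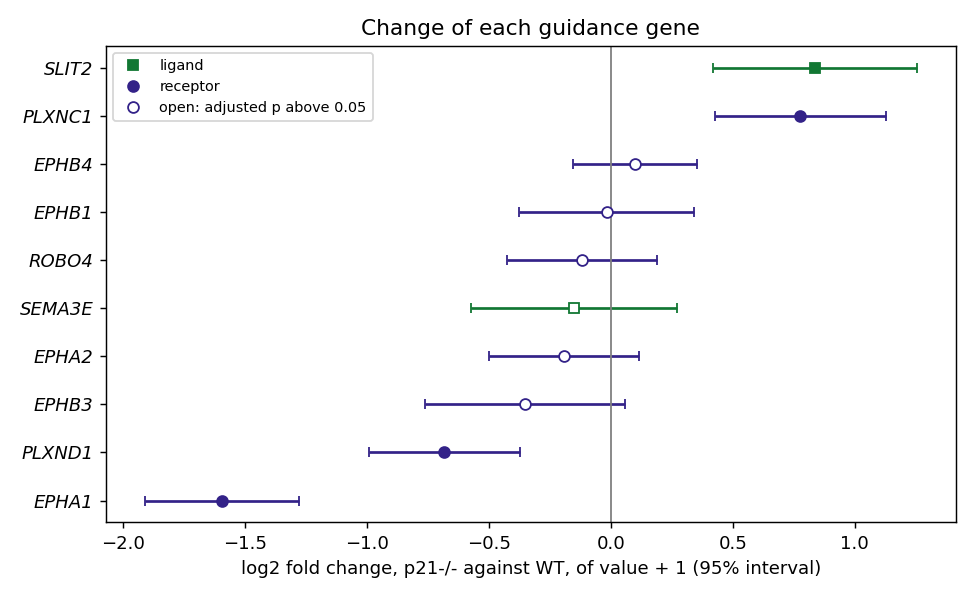
Log2 fold change of value + 1, p21-/- against WT, for each guidance gene with its 95% interval from limma. Squares are ligands, circles are receptors, and open symbols did not pass an adjusted p of 0.05. The 4 filled symbols run from -1.60 for EPHA1 to 0.84 for SLIT2.

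EPHA1 encodes an ephrin-A binding receptor kinase found in many epithelia. Its normalized counts, given here and below in the order of replicates 1 to 3, were 396, 435 and 523 in WT and 159, 137 and 149 in p21-/- samples. All p21-/- values lay below all WT values, and all were well above the floor. The mean fell from 451 ± 64.8 to 148 ± 11.1 (SD, n = 3 each), to 32.8% of the WT level, and the log2 fold change was -1.60 (SE 0.149, limma adjusted p = 1.77e-07). It was the largest change of the 10 genes under the normalization of the authors.

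As a reference for the called genes, the 250 bases before the RefSeq start (GRCh38.p14, the outermost start where RefSeq has several) are printed, with 2 motifs in capitals. These are CAGGTG or its reverse complement CACCTG, the E-box read by SNAI and ZEB repressors, and GGGCGG or its reverse complement CCGCCC, the GC box. Neighbouring GC boxes may share letters, and no E-box overlapped a GC box. Over 35116 promoters of this length the E-box was present in 17.5% and the GC box in 42.6%. Among the 10 guidance genes, for all of which a promoter was found, 1 held the E-box, EPHA1, at 80 bases before the start, and 9 held the GC box. These matches are letters in a window and say nothing of binding. The EPHA1 window lies on the minus strand at chr7:143408857-143409106 and is 59.2% G and C.
EPHA1: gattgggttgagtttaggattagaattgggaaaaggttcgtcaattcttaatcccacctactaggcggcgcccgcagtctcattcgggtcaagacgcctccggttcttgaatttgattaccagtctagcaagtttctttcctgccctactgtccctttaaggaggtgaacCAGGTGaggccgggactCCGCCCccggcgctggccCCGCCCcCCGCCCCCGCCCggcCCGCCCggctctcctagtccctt

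The other 4 Eph receptors did not pass the test. EPHA2, which binds ephrin-A ligands and is abundant in many carcinoma lines, had 2800, 4931 and 3458 normalized counts in WT and 3207, 3156 and 3153 in p21-/- samples. The p21-/- values lay inside the WT range, with a coefficient of variation of 29.3% between WT and 0.971% between p21-/- replicates. Its log2 fold change was -0.19 (95% interval -0.50 to 0.11, adjusted p = 0.337 from limma). It passed without WT replicate 1, at -0.38 (adjusted p = 0.000762 from limma), and was 0.03 without WT replicate 2, the highest sample.

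EPHB4, the receptor of ephrin-B2 in veins, had 586, 638 and 789 normalized counts in WT and 714, 699 and 726 in p21-/- samples. The p21-/- values again fell within the WT range, and the log2 fold change was 0.10 (95% interval -0.15 to 0.35, adjusted p = 0.495 from limma). EPHB3, a receptor of the intestinal crypt base, had 118, 83.1 and 122 normalized counts in WT and 93.9, 71.0 and 84.9 in p21-/- samples. The lines overlapped through WT replicate 2, and the log2 fold change was -0.35 (95% interval -0.76 to 0.06, adjusted p = 0.158 from limma). Without that sample it was -0.53 (adjusted p = 0.026 from limma). EPHB1, another ephrin-B receptor, was above the floor only in p21-/- replicate 1, at 42.1 normalized counts. That value rests on 39 barcode counts, and its exact 95% Poisson interval of 29.9 to 57.5 normalized counts, which covers counting error only, includes the floor of 33.8.

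Since a ratio of a pair of genes inside a sample does not depend on the scaling between samples, EPHA1 was also set against the other Eph receptors above the floor. The log2 ratio of EPHA1 to EPHB4 was -0.57 ± 0.0212 for WT and -2.27 ± 0.0938 for p21-/- (SD, n = 3 each), giving a difference of -1.70. The corresponding difference was -1.41 against EPHA2 and -1.25 against EPHB3. The lines did not overlap in any of these ratios. With 3 samples against 3, the exact two-sided permutation test gave p = 0.1 for each, the smallest value it can give, and p = 0.1 after Benjamini-Hochberg adjustment over the 4 ratios computed, which were chosen after the values were seen.

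The 2 plexins changed in opposite directions. PLXND1, the receptor that binds SEMA3E directly, had 310, 377 and 401 normalized counts in WT and 234, 236 and 204 in p21-/- samples. Every p21-/- value lay below every WT value. The mean fell from 363 ± 47.0 to 225 ± 17.6 (SD, n = 3 each). The log2 fold change was -0.68 (SE 0.145, limma adjusted p = 0.000816).

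PLXNC1, the receptor of the membrane-anchored semaphorin SEMA7A, was at the floor in WT replicates 1 and 2 and had 40.9 normalized counts in WT replicate 3. It had 58.3, 66.4 and 57.5 in p21-/- replicates 1, 2 and 3. All 3 p21-/- values were above the highest amount a WT floor entry can stand for, 44.9. The log2 fold change was 0.78 (SE 0.164, limma adjusted p = 0.000788). The p21-/- values correspond to 54, 73 and 65 barcode counts and the WT value to 35. The exact 95% Poisson intervals of WT replicate 3 (28.5 to 56.9 normalized counts) and p21-/- replicate 3 (44.4 to 73.3) overlapped. The size of the rise depends on the floor, and the log2 fold change was 0.53 with the floor at its upper limit. The sequences before the plexin starts are shown to set the gene that fell beside the gene that rose. The PLXND1 window (minus strand, chr3:129606677-129606926) is 88.8% G and C with 9 GC boxes, and the PLXNC1 window (plus strand, chr12:94148327-94148576) is 65.2% G and C with 5.
PLXND1: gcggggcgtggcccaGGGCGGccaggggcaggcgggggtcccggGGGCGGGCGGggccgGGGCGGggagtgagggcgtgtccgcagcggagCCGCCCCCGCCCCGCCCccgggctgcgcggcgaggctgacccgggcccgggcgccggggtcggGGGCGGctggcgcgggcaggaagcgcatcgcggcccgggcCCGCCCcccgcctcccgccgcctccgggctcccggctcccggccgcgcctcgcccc
PLXNC1: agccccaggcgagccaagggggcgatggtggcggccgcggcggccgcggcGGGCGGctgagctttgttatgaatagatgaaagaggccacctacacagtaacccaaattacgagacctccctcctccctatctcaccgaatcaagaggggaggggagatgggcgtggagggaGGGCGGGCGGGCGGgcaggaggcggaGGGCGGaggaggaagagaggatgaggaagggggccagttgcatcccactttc

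SEMA3E, the secreted ligand of PLXND1, had 87.4, 85.4 and 139 normalized counts in WT and 86.3, 91.9 and 95.6 in p21-/- samples. WT replicate 3 stood above the rest, and the other WT samples lay at the level of the p21-/- samples. The log2 fold change was -0.15 (95% interval -0.57 to 0.27, adjusted p = 0.536 from limma), and it was 0.08 without WT replicate 3. Ligand and receptor of this pair thus had values of -0.15 and -0.68 side by side. The log2 ratio of PLXND1 to SEMA3E was 1.83 ± 0.309 in WT and 1.30 ± 0.179 in p21-/- cells (SD, n = 3 each), without overlap, and the exact permutation test again gave p = 0.1.

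SLIT2, a secreted ligand of ROBO receptors, was at the floor in WT replicate 1 and had 49.4 and 44.4 normalized counts in WT replicates 2 and 3. It had 66.9, 84.7 and 68.1 in p21-/- replicates 1, 2 and 3. All p21-/- values were above all WT values, also with WT replicate 1 placed at 44.9. The log2 fold change was 0.84 (SE 0.197, limma adjusted p = 0.00188). When each gene's spread was estimated alone, in an ordinary linear model, its adjusted p was 0.0596. The window before its start (plus strand, chr4:20251655-20251904) is printed as for the other called genes, and is 77.2% G and C with 5 GC boxes.
SLIT2: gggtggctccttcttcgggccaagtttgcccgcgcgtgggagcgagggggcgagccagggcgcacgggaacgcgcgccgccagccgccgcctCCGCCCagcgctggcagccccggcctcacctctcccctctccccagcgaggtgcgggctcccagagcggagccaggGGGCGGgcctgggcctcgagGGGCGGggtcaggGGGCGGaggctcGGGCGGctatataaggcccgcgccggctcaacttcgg

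ROBO4, the roundabout receptor known from endothelium and the sole ROBO gene of the table, was at the floor in all 6 samples, so no level or change can be given. TEK and KDR, further receptors of endothelial cells, were at the floor in the same samples. The table thus held a Slit ligand above the floor in 5 of 6 samples and no ROBO receptor above it.

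The scaling between samples changed several calls. A set of 30 housekeeping candidates had geometric means of 888 to 934 normalized counts in WT and 1188 to 1200 in p21-/- samples, and scaling to them shifted the median log2 fold change over 446 genes above the floor by -0.38. Under this scaling 8 guidance genes were lower and 2 higher in p21-/- cells, and 529 genes of the panel were lower and 97 higher, against 200 and 168 as deposited. ROBO4 and EPHB1 were among the 8, although their values are mostly floor entries that were divided by the new factors. Median scaling shifted this median by 0.21 and quantile normalization by 0.18, the latter unevenly, with EPHA1 going from -1.60 to -1.26 and PLXNC1 from 0.78 to 0.86. Over the panel, 251 genes were higher and 169 lower with median scaling, and 214 and 155 with quantile normalization. Under these scalings EPHB4 passed as higher, at 0.31 and 0.39. With the housekeeping candidates it passed in the other direction, as lower, at -0.29 (adjusted p = 0.0247 from limma). EPHA1, PLXND1, PLXNC1 and SLIT2 kept direction and call under each of these scalings and a trimmed mean of M values. PLXNC1 and SLIT2 had log2 fold changes of 0.40 and 0.46 with the housekeeping candidates, and PLXND1 ranged from -1.07 with these to -0.33 with quantile normalization.

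**Figure D3:**
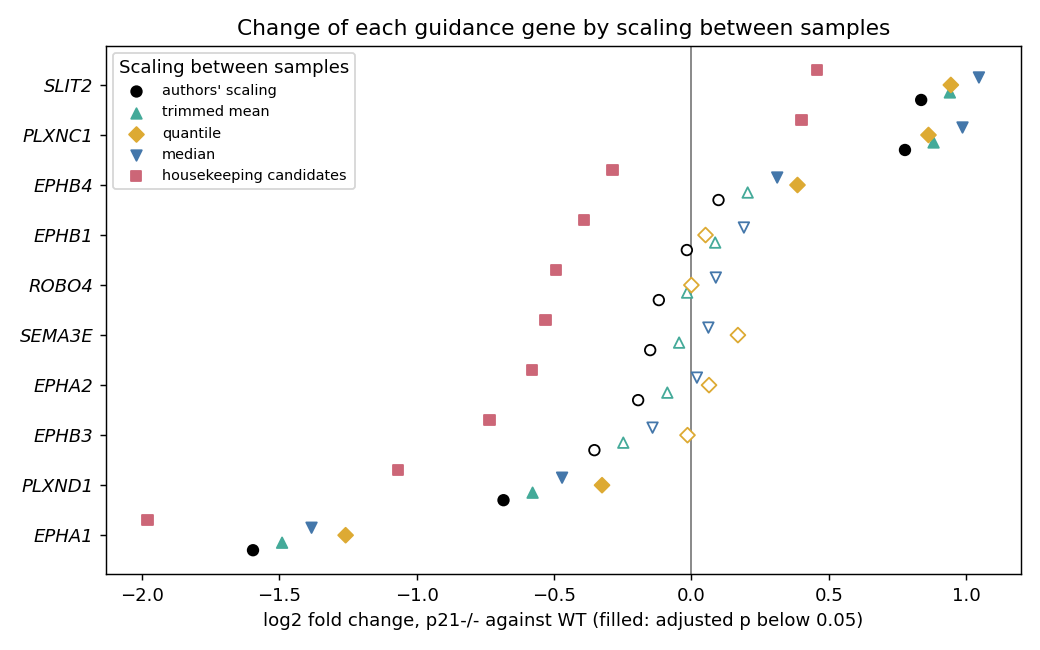
Log2 fold change of each guidance gene, p21-/- against WT, under 5 scalings between samples, with filled symbols where the adjusted p was below 0.05. EPHA1 and PLXND1 stay below 0 and PLXNC1 and SLIT2 stay above 0 under all 5, whereas the other 6 genes change side, call or both.

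Of 132 partner and signalling genes of these pathways, 31 were measured. Of these, 7 were higher and 14 lower in p21-/- cells, and 10 did not pass, where 21.8% of the panel was higher and 26.0% lower. The median log2 fold change was -0.12 over all 31 and over the panel, a value that floor entries set in part. The 24 without a floor entry had a median of -0.30, beside -0.050 for such genes of the panel. This filter removed rising genes, among them NRP2 and CXCR4, and kept every gene that fell, so -0.30 is set in part by the filter. Among 10 partner receptors and co-receptors, NRP1 and NRP2 rose and 6 fell, against 47.8% of the panel called in either direction. NRP1, a neuropilin that modulates the response of PLXND1 to SEMA3E, had 155, 179 and 241 normalized counts in WT and 1775, 1817 and 1849 in p21-/- samples. Its log2 fold change was 3.26 (SE 0.141, limma adjusted p = 1.75e-11). NRP2, its relative with other semaphorin partners, was at the floor in WT replicate 1, at 48.3 and 53.8 in the other WT samples and at 131, 150 and 131 in p21-/- samples, a log2 fold change of 1.66. In this axis NRP1 thus rose, PLXND1 fell and SEMA3E had overlapping values in the lines.

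The partners that fell were MET (log2 fold change -1.48) and ERBB3 (-0.56), receptor kinases of the families that plexins of the B class associate with, the hyaluronan receptor CD44 (-1.57), the integrins ITGB1 (-1.15) and ITGA1 (-0.78), which form the receptor of SEMA7A together, and the heparan sulfate proteoglycan SDC4 (-1.42). ERBB2, a further receptor kinase that associates with plexins of the B class, overlapped between the lines and did not pass, with a log2 fold change of -0.027 (95% interval -0.27 to 0.22, adjusted p = 0.851 from limma). PLXNC1, the other receptor of SEMA7A, rose. CXCR4, a chemokine receptor whose signalling Slit proteins dampen, was at the floor in WT replicate 3, at 63.3 and 43.8 in WT replicates 1 and 2, and at 186, 147 and 168 in p21-/- samples (log2 fold change 1.85). Its ligand CXCL12 was at the floor in all 6 samples.

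Downstream, of 7 kinases and adaptors, 2 rose and 3 fell, again beside 47.8% of the panel called. PIK3CA, a catalytic subunit of PI 3-kinase, had a log2 fold change of 0.97 and PTK2B, a focal adhesion kinase relative, one of -1.22. DPYSL3, of the collapsin response mediator family that relays semaphorin signals to the cytoskeleton, fell by 3.75 on the log2 scale. Quantile normalization gave 11 higher genes in place of 7, and scaling to housekeeping candidates gave 22 lower genes in place of 14.

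**Figure D4:**
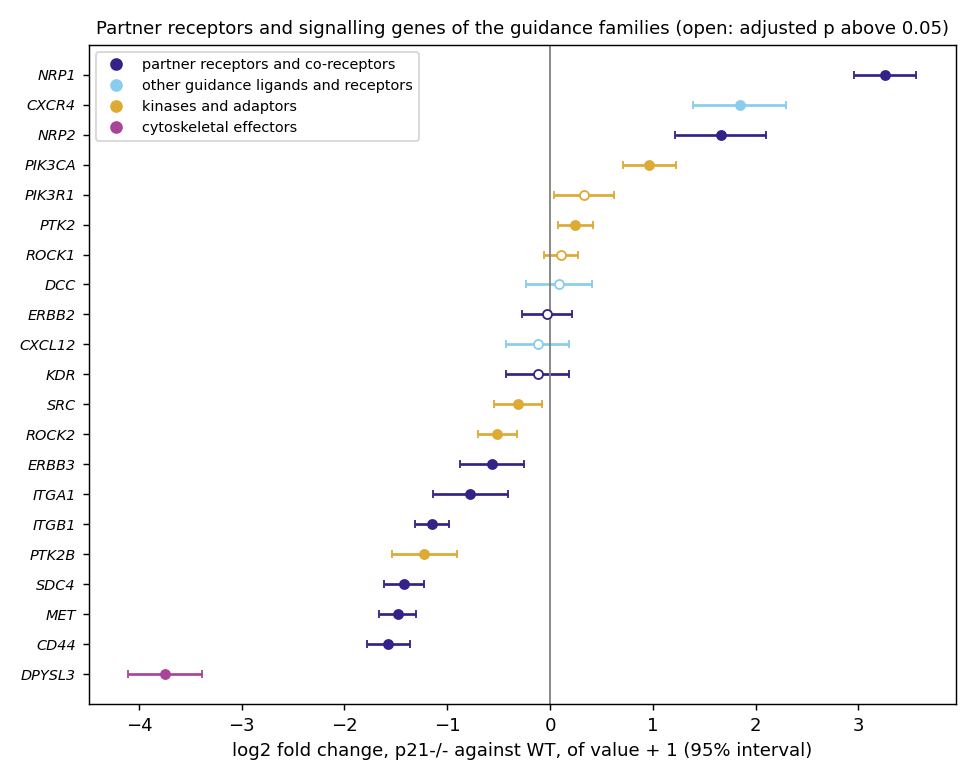
Log2 fold change of value + 1, p21-/- against WT, of 21 of the measured partner and signalling genes with 95% intervals from limma, coloured by list, with open circles for genes that did not pass an adjusted p of 0.05. NRP1 lies highest, at 3.26, and DPYSL3 lowest, at -3.75.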

How the data were processed

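RNA of 3 WT and 3 p21-/- samples, grouped by their titles, had been hybridized to the panel, whose table holds 770 genes, 6 positive and 8 negative controls. Gene entries as deposited are no raw counts but a signal, described as scaled by the authors with nSolver to positive controls and housekeeping genes. The 30 housekeeping candidates were not level in these values, with geometric means of 888 to 934 in WT and 1188 to 1200 in p21-/- samples. The fold changes therefore cannot be taken as relative to these candidates, and the cause of the difference was not tested. Low entries hold a floor, which matched the negative controls' mean plus 2 SD. Barcode counts were recovered through the factor that makes values above the floor and under 500 whole within 0.1 count (100% in every sample). NanoStringDiff, used in the study, needs raw counts and was not run.

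The lines were compared by limma (version 3.58.1, R 4.3.3), two-sided, taking log2(value + 1) and an intensity trend without filter or covariates. P-values were adjusted after Benjamini-Hochberg over 770 genes. The fit was tested on simulated data. The added 1 makes fold changes of low genes smaller, but floor entries can also enlarge them. With the floor at its upper limit, PLXNC1 went from 0.78 to 0.53 and SLIT2 from 0.84 to 0.64. Ratios used exact permutation tests over samples.

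Named were all guidance genes and every called partner or other guidance receptor. The rule also took the 6 largest rises and the 6 largest falls among called companion genes without overlap and with at least 20 as the mean of the higher line. Of these rises, those that belong to the companion genes not reported here were left out. Members and lists were chosen with earlier results of these data known. Alternatives were pseudocounts of 10 and 0.5, a low-value filter, 4 scalings, an ordinary linear model, a prior variance without trend, the floor at its limit, the replicate block and leaving out each sample. Symbols of all 10 genes matched RefSeq. The results of some companion genes are not reported here, though the totals count them.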

Additional observations from a re-analysis of the deposited data

How the results depend on the processing

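Under 17 alternatives, EPHA1, PLXNC1 and PLXND1 kept call and direction in all, and SLIT2 in all but the ordinary linear model, which left 1 guidance gene higher. With each sample left out, the log2 fold change ranged from -1.68 to -1.48 for EPHA1, 0.67 to 0.89 for PLXNC1, -0.79 to -0.61 for PLXND1, 0.62 to 0.98 for SLIT2, -0.38 to 0.028 for EPHA2, -0.20 to 0.15 for EPHB1 and -0.27 to 0.077 for SEMA3E. Scaling to housekeeping candidates gave 8 lower guidance genes and 22 lower companion genes, and quantile normalization gave 11 higher companion genes. Genes that had not passed changed sign as follows. Median scaling gave 0.020 for EPHA2, 0.19 for EPHB1, 0.089 for ROBO4 and 0.062 for SEMA3E, quantile normalization gave 0.064 for EPHA2, 0.051 for EPHB1 and 0.17 for SEMA3E, the trimmed mean of M values gave 0.087 for EPHB1, and the housekeeping candidates gave -0.29 for EPHB4. With the floor at its upper limit, PLXNC1 had 0.53 and SLIT2 0.64, and ROBO4 passed at -0.40 (adjusted p = 0.0324) although all its values are floor entries, since by construction the limits are higher in WT samples. With the replicate number as a block, 2 guidance genes were higher and 2 lower, as without it, but the same-numbered samples deviated together only weakly (r = 0.0757, -0.0544 and 0.0524 over 446 genes), so they share only a number. Values near the floor limit what can be said of EPHB1, ROBO4, PLXNC1 and SLIT2. The cause of the other differences was not tested.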

Other observations

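The WT samples differed among themselves in the guidance genes. Of the 6 guidance genes above the floor in all samples, 5 were highest in WT replicate 3 (EPHA1, EPHB3, EPHB4, PLXND1 and SEMA3E), and EPHA2 was highest in WT replicate 2. WT replicate 1 was lowest for 4 of them. Over all 446 genes that were above the floor in all samples, 54.0% were highest in WT replicate 3 and 59.0% were lowest in WT replicate 1. WT replicate 1 also had the fewest barcode counts above the floor, 867428, and the largest normalization factor, 1.51 normalized counts per barcode count, whose part in this was not tested. All 6 guidance genes had a larger coefficient of variation in WT than in p21-/- samples, as did 381 of the 446 genes. Within WT, EPHA1 and EPHB4 varied together, and their log2 ratio stayed between -0.59 and -0.55, whereas that of EPHA1 to EPHA2 ran from -3.50 to -2.73.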
